A study of Mus musculus with 6 samples.

Results

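The 8 genes described here are the core of cellular iron handling: the ferritin genes Fth1 and Ftl1, the transporters and receptor Tfrc, Slc11a2 and Slc40a1, and the regulators Aco1, Ireb2 and Ncoa4. They were chosen by symbol, and each had a value other than 0 in all 6 libraries, among 47593 symbols of which 26562 were not at 0. A test was possible for 7 of them, since Slc40a1 stayed below the filter on low values. The cells were primary neurons from the hippocampus of wild-type (WT) mice. Both groups received apolipoprotein E (apoE) particles, lipid carriers of the brain, at 6 µg/mL from culture day 10 for 24 h. In 3 libraries the particles were astrocytic and in the other 3 they were microglial. The question was how the source of the particles alters the neuronal transcriptome. Every direction below is microglial relative to astrocytic apoE, because untreated neurons were not analysed here. The labels give neither the age of the animals nor whether the 3 samples of a group were separate cultures. What the p-values gauge is thus the variation among these particular libraries, which may be technical.

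Iron enters most cells bound to transferrin through the transferrin receptor, leaves the endosome through the divalent metal transporter, and is stored inside ferritin, a shell of heavy and light chains. Ferroportin is the known iron exporter of mammalian cells. Iron regulatory proteins tie these steps together: in iron-poor cells they bind hairpins in messenger RNAs, the iron-responsive elements, blocking translation from the 5′ UTR and protecting the message from decay in the 3′ UTR. Only RNA was measured here, so control by translation is outside these data. The hairpins are shown because 4 of the 8 genes held one, 3 of them ahead of the coding sequence and Tfrc behind it. They were read from the GENCODE transcripts on the build GRCm38 with the pattern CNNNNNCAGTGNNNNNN, in which the 5 bases on either side of the loop had to pair, G with T included. Only the strand of the transcript was searched. Each line gives 29 bases, 5′ to 3′, with the loop in capitals.
Fth1, 5′ UTR, chr19:9982732-9982760, plus strand: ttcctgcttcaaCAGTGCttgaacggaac
Ftl1, 5′ UTR, chr7:45459779-45459807, minus strand: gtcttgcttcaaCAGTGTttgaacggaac
Slc40a1, 5′ UTR, chr1:45925465-45925493, minus strand: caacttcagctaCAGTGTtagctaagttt
Tfrc, 3′ UTR, chr16:32631219-32631247, plus strand: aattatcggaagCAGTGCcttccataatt
Tfrc, 3′ UTR, chr16:32631598-32631626, plus strand: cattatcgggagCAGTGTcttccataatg
Tfrc, 3′ UTR, chr16:32631663-32631691, plus strand: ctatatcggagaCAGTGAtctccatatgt
Tfrc, 3′ UTR, chr16:32631710-32631738, plus strand: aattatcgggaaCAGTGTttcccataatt

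The Fth1 and Ftl1 hairpins shared 26 of 29 bases. Among 21877 protein-coding genes, 31 (0.142%) held this pattern in a 5′ UTR and 129 (0.59%) in a 3′ UTR. No match was found in Slc11a2, Aco1, Ireb2 or Ncoa4, which says only that this pattern, its pairing rule included, is not met in their annotated transcripts.

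Of the 7 genes tested, 2 rose, 1 fell and 4 did not pass the test, with a median log2 fold change of 0.052. Over all 15055 genes tested, limma called 24.9% at an adjusted p under 0.05 (13.0% higher and 11.8% lower), and the median log2 fold change was -0.00057. Higher genes made up 52.4% of all calls, against 34.8% with every library's median set to the same value and 65.6% with the summed back-transformed values set equal. The 3 libraries of one group lay wholly above those of the other for 38.9% of all genes tested (20.1% with microglial apoE higher and 18.8% lower). Among the 7 this was so for Fth1, Ftl1 and Slc11a2, higher with microglial apoE, and for Ireb2, lower. The deposited values are on a log2 scale with properties of a regularized logarithm, so the depth of each library is unknown and the changes of weak genes are understated. The back-transformed values (2 to the power of the deposited value) summed to between 18060473 and 18337624 per library, a common scale and not a count of reads. Pairs of libraries from one group had median absolute differences of 0.0256 to 0.0370, and pairs from different groups 0.0425 to 0.0563.

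**Figure D1:**
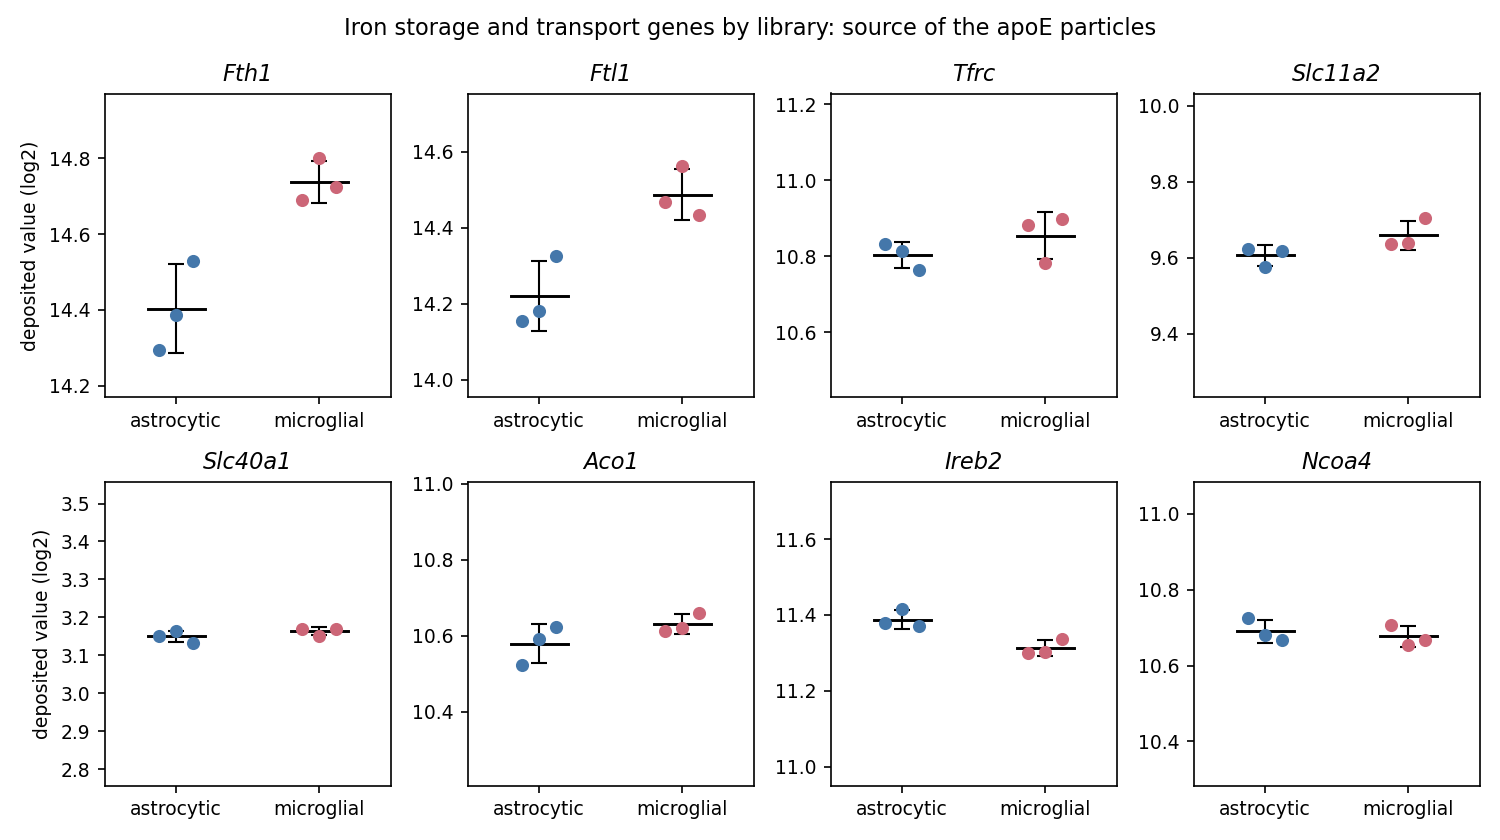
Deposited log2 value (y axis) of the 8 genes in each library (points), with the mean and SD of the 3 libraries treated with astrocytic or microglial apoE particles (bars). Every panel spans the same number of log2 units, and the groups stand apart most clearly for Fth1 and Ftl1.

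Both ferritin genes rose with microglial apoE. Fth1 encodes the heavy chain, which carries the ferroxidase site that oxidises iron for storage, and lies at chr19:9980598-9985098 on the plus strand. Its log2 values were 14.29, 14.39 and 14.53 with astrocytic apoE and 14.69, 14.80 and 14.72 with microglial apoE. The lowest microglial library stood 0.16 above the highest astrocytic one, and the astrocytic libraries were the more spread out. The mean went from 14.40 ± 0.12 to 14.74 ± 0.06 (SD, n = 3), a log2 fold change of 0.33 ± 0.065 (SE) with a 95% interval of 0.17 to 0.50, or 1.26-fold (limma adjusted p = 0.015). Without microglial replicate 2, the highest library, the change was 0.30 and no longer passed (limma adjusted p = 0.10).

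Ftl1 encodes the light chain, which favours mineral formation in the shell, and lies at chr7:45457944-45459884 on the minus strand. In log2 units it stood at 14.15, 14.18 and 14.33 with astrocytic apoE and 14.47, 14.56 and 14.43 with microglial apoE. The groups did not overlap, and again the third astrocytic library was the highest of its group and microglial replicate 2 the highest of all. The mean went from 14.22 ± 0.09 to 14.49 ± 0.07 (SD, n = 3), a log2 fold change of 0.27 ± 0.049 (SE) with an interval of 0.16 to 0.38, or 1.20-fold (limma adjusted p = 0.0037). By absolute change, 239 of the tested genes moved more than Fth1 and 344 more than Ftl1. By level, Fth1 ranked 25 and Ftl1 37 among all genes tested. Of 793 non-mitochondrial genes at a level of at least 12, 161 (20.3%) rose, and the median change of the 793 was 0.0069. The change of Ftl1 was reached by 16 (2.02%), a count that includes Fth1 and Ftl1 themselves. Of the 78 with a principal transcript of up to 1200 bases, 4 (5.13%) reached it, again with both ferritin genes included.

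**Figure D2:**
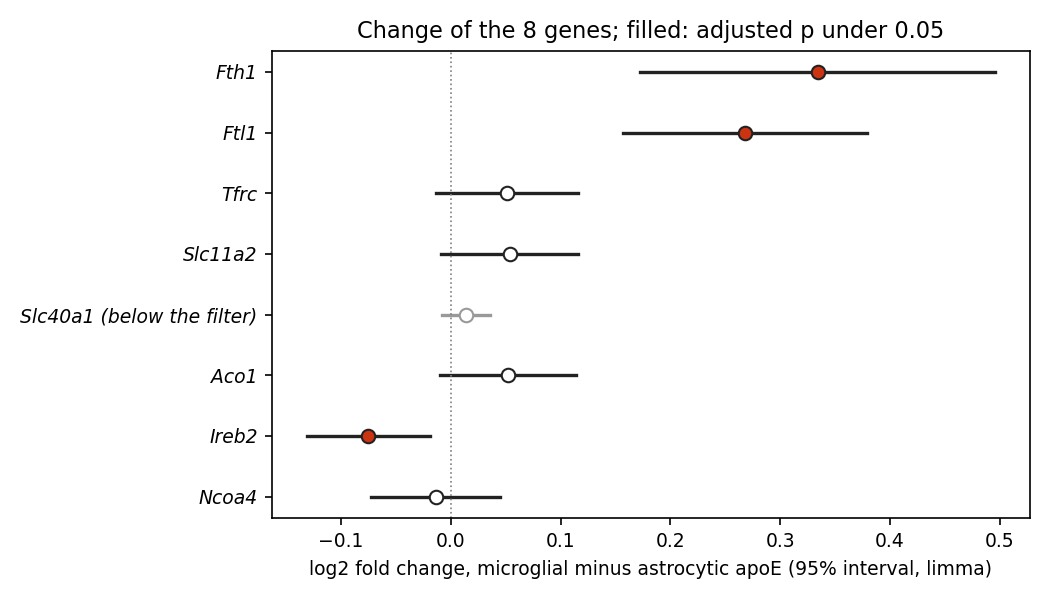
Log2 fold change (x axis, microglial minus astrocytic apoE) of each of the 8 genes with its 95% interval from limma, filled where the adjusted p was under 0.05. The intervals of Fth1 (0.17 to 0.50) and Ftl1 (0.16 to 0.38) lie well to the right of 0, that of Ireb2 (-0.13 to -0.019) lies to the left of it, and the others cross it.

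A library property moved with both ferritin genes. Mitochondrially encoded transcripts made up 7.92%, 7.47% and 6.46% of the summed back-transformed values in the astrocytic libraries and 5.71%, 5.77% and 5.74% in the microglial ones. The share was higher in every astrocytic library than in any microglial one, and within the astrocytic group Fth1 and Ftl1 were lowest where the share was highest. Within the microglial group, where the share ran only from 5.71% to 5.77%, both genes were instead highest where the share was highest. With the share as a covariate, an alternative chosen after seeing the data, the change was 0.097 ± 0.051 (SE) for Fth1 (limma adjusted p = 0.34) and 0.084 ± 0.057 for Ftl1 (limma adjusted p = 0.49). That fit called 867 genes in all. Because the share separates the groups completely, the share and the source of the particles cannot be told apart in these 6 libraries. With the summed value outside the mitochondrial genes made equal, the changes were 0.32 for Fth1 and 0.26 for Ftl1, and both remained called.

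**Figure D3:**
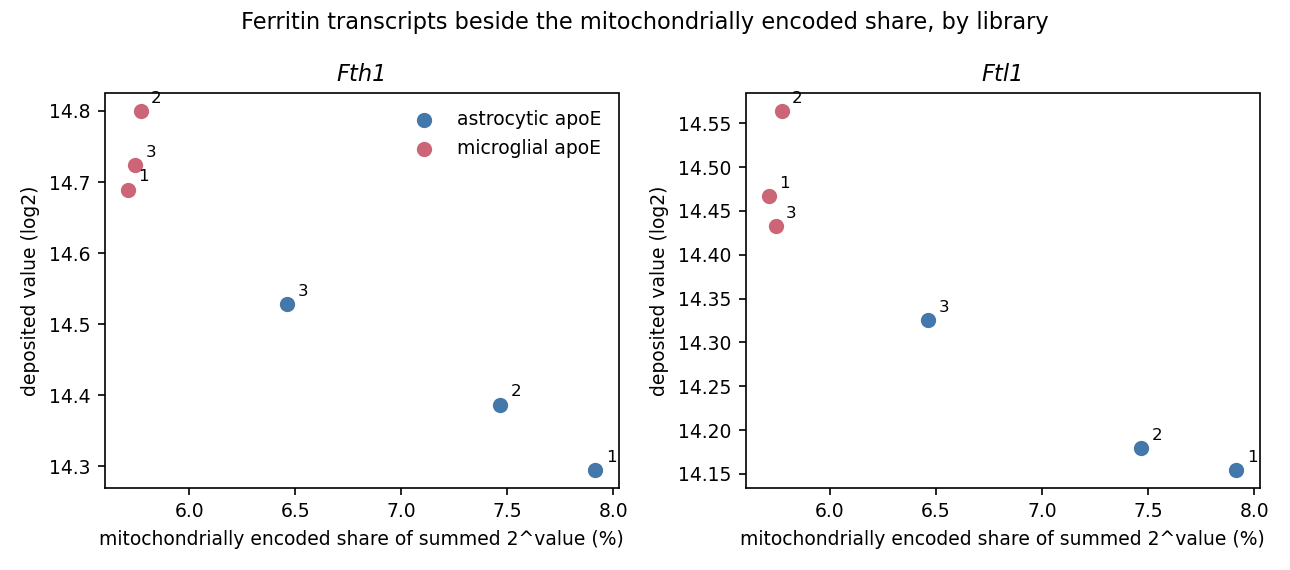
Deposited log2 value of Fth1 and Ftl1 (y axes) against the mitochondrially encoded share of the summed back-transformed values in percent (x axis), one point per library, coloured by the source of the particles. The microglial libraries lie together at 5.71% to 5.77% with the highest ferritin values, and the astrocytic ones spread from 6.46% to 7.92%.

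The promoters of both ferritin genes are shown because the pair rose together. These are the 250 bases ahead of the start of each gene in RefSeq (GRCm38.p6), 5′ to 3′, with capitals for the CCAAT box (CCAAT or ATTGG) and the GC box (GGGCGG or CCGCCC).
Fth1, chr19:9982396-9982645, plus strand: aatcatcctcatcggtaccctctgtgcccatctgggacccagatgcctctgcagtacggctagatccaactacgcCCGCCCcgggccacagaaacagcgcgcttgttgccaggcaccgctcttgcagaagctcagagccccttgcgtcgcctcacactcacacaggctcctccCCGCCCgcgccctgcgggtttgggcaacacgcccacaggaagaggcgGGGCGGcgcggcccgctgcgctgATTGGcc
Ftl1, chr7:45459887-45460136, minus strand: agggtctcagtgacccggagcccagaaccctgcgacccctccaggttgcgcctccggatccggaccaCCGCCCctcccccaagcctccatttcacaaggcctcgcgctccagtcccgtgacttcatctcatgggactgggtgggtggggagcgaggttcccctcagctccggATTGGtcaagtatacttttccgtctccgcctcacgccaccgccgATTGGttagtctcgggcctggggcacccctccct

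The Fth1 window held 1 CCAAT box and 3 GC boxes, and the Ftl1 window 2 CCAAT boxes and 1 GC box. Among 32851 such windows, 33.8% held a CCAAT box and 32.7% a GC box on either strand. The antioxidant response element, searched as TGACNNNGC on both strands and present in 10.2% of windows, was in neither. This covers only the 250 bases shown, and an element further from the start would have been missed. Fth1 also has a listed start further upstream, whose window held none of the 3 motifs.

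Ferritin has many processed copies in the mouse genome, and reads from them cannot always be told from those of the parent genes. A sequence search for matches of at least 85% identity over at least 50% of the Fth1 or Ftl1 transcript found 16 copies, of which 11 were among the symbols of the files and 5 of those were listed at 0. Together with symbols that begin with Fth or Ftl, 8 copies had values, and they summed to 0.202% to 0.284% of the ferritin total in each library. That share leaves out copies absent from the symbols, among them the closest, Ftl1-ps1 (99.6% identity over 94% of the Ftl1 transcript). The strongest, Gm15590 (99.1% identical to Ftl1), had values of 6.16 to 6.34, and its mean differed by -0.036 between the groups. Gm6977, which resembles Fth1 (90.5% identity), had values of 4.11 to 4.21 and a difference of -0.011. Ftl2-ps (98.7%) had values of 3.11 to 3.15 and a difference of 0.0030. How reads with several matches were counted is not given in the sources used here, so the division between Ftl1 and its copies is uncertain. Gm22133, a microRNA gene inside Ftl1 on the same strand, was listed at 0. Gm10252, which overlaps Ftl1 on the opposite strand, was not among the symbols. Without a stated strand setting, any reads from it cannot be told from those of Ftl1.

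Neither Tfrc nor Slc11a2, the uptake genes of the 8, passed the test. Tfrc, the transferrin receptor, lies at chr16:32608920-32632794 on the plus strand. Its log2 values were 10.83, 10.81 and 10.76 with astrocytic apoE and 10.88, 10.78 and 10.90 with microglial apoE. Microglial replicate 2 stood among the astrocytic values and the other 2 above them. The log2 fold change was 0.051 ± 0.031 (SE), with an interval of -0.014 to 0.12 (limma adjusted p = 0.25). Without microglial replicate 2 it was 0.087 and passed (limma adjusted p = 0.036).

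Slc11a2, the divalent metal transporter DMT1, lies at chr15:100387898-100425072 on the minus strand. The log2 values of its RNA were 9.62, 9.58 and 9.62 with astrocytic apoE and 9.64, 9.64 and 9.70 with microglial apoE. The groups stood apart by only 0.013. The log2 fold change of 0.054 ± 0.030 (SE) had an interval of -0.0090 to 0.12 and did not pass (limma adjusted p = 0.21). Gm5475 overlaps it on the opposite strand, with values of 0.70 to 0.72 in every library, and without a stated strand setting their reads cannot be told apart.

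Slc40a1, which encodes ferroportin, lies at chr1:45908068-45926523 on the minus strand and was the weakest of the 8 genes. Its log2 values were 3.15, 3.16 and 3.13 with astrocytic apoE and 3.17, 3.15 and 3.17 with microglial apoE, all under the filter at the log2 of 10 (3.32). The groups overlapped. In a fit without the filter the log2 fold change was 0.014 ± 0.011 (SE; limma adjusted p = 0.50), on a scale where so low a gene is drawn towards its own mean. A difference in ferroportin RNA was therefore not detectable at this level.

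Of the regulators, Ireb2 had the only call, and a small one. Ireb2 encodes iron regulatory protein 2, which is degraded when iron is plentiful, and lies at chr9:54863789-54912530 on the plus strand. Its log2 values were 11.38, 11.42 and 11.37 with astrocytic apoE and 11.30, 11.30 and 11.34 with microglial apoE. Every microglial library lay below every astrocytic one, by at least 0.034. The mean went from 11.39 ± 0.02 to 11.31 ± 0.02 (SD, n = 3), a log2 fold change of -0.075 ± 0.027 (SE) with an interval of -0.13 to -0.019, and the level fell by 5.08% (limma adjusted p = 0.045). The call ended when any library other than astrocytic replicate 3 was left out (limma adjusted p from 0.063 up to 0.22), when weak genes were kept (0.087), and with the summed back-transformed values made equal (0.11).

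Aco1 encodes iron regulatory protein 1, which serves as a cytosolic aconitase when it holds an iron-sulphur cluster, and lies at chr4:40143081-40198338 on the plus strand. In the 3 astrocytic libraries its log2 values were 10.52, 10.59 and 10.62, and in the microglial ones 10.61, 10.62 and 10.66. The groups overlapped, and the log2 fold change was 0.052 ± 0.030 (SE) with an interval of -0.010 to 0.11 (limma adjusted p = 0.22). Ncoa4, the receptor that brings ferritin to the lysosome for breakdown, lies at chr14:32159865-32179855 on the plus strand. It was at log2 values of 10.72, 10.68 and 10.67 with astrocytic apoE and 10.71, 10.65 and 10.67 with microglial apoE. The values of both groups interleaved, with a log2 fold change of -0.014 ± 0.028 (SE) and an interval of -0.072 to 0.045 (limma adjusted p = 0.77).

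Differences between members within a library do not depend on how the libraries were scaled. The log2 value of Fth1 exceeded that of Tfrc by 3.46, 3.57 and 3.76 in the astrocytic libraries and by 3.81, 4.02 and 3.83 in the microglial ones. These values are not corrected for length, so only their change can be read. The difference between the 2 genes went from 3.60 ± 0.15 to 3.88 ± 0.12 (SD, n = 3), without overlap. The log2 value of Fth1 exceeded that of Ftl1 by 0.14, 0.21 and 0.20 with astrocytic apoE and by 0.22, 0.24 and 0.29 with microglial apoE. The ratio of heavy to light chain transcripts differed by 0.067 on this scale, which is 1.05-fold. Aco1 minus Ireb2 was -0.86, -0.82 and -0.75 with astrocytic apoE and -0.69, -0.68 and -0.68 with microglial apoE, a difference of 0.13. None of these differences was tested.

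Levels of the 8 genes can be compared with each other only per length. Per kilobase of the principal transcript, the mean back-transformed value of Fth1 was 23375 with astrocytic and 29420 with microglial apoE, and that of Ftl1 was 19740 and 23750. The other 5 genes above the filter formed a second tier, from 494 and 490 for Ncoa4 through 465 and 441 for Ireb2, 399 and 414 for Aco1 and 366 and 379 for Tfrc to 258 and 267 for Slc11a2. Ferroportin was last, at 2.63 and 2.66. Over the 6 libraries the range of Fth1 (21633 to 30694) overlapped that of Ftl1 (18840 to 25012), and the range of Aco1 (384 to 422) overlapped that of Tfrc (356 to 390). The ranges of the other neighbours in this order did not overlap. Per kilobase of all annotated exons the order was Ftl1, Fth1, Aco1, Tfrc, Ireb2, Ncoa4, Slc11a2 and Slc40a1, so the order of the ferritin genes and of the middle tier depends on the length used.

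Beyond the 8, 82 further iron genes were listed by role, of which 80 were in the files and 72 could be tested. Of these, 13 rose, 9 fell and 50 did not pass, and the share called (30.6%) stood beside 24.9% of all genes. Their median log2 fold change was 0.023. The call counts moved with single libraries: 8 rose without astrocytic replicate 2, and 4 to 5 fell without astrocytic replicate 1, astrocytic replicate 2 or microglial replicate 3. With the mitochondrial share as a covariate 5 rose (Lcn2, Cp, Hfe, Hmox1 and Hspa9) and 3 fell (Steap3, Steap4 and Cybrd1).

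In the transferrin cycle and iron import, 2 of 12 tested genes rose and 4 fell. This called share was above the 24.9% of all genes, a difference that was not tested. Lcn2, a secreted protein that binds iron-loaded siderophores, was at 11.11, 11.17 and 11.13 with astrocytic and 11.78, 11.85 and 11.74 with microglial apoE, a log2 fold change of 0.66 ± 0.030 (SE; limma adjusted p = 4.7e-15). Steap2, Steap3, Steap4 and Cybrd1 are ferric reductases, a grouping that was not set beforehand. Steap2 had a change of 0.036 with overlapping libraries that did not pass (limma adjusted p = 0.46). Steap4 went from 9.36, 9.40 and 9.40 to 8.99, 9.05 and 9.04 and fell by 0.36 on the log2 scale (SE 0.030, limma adjusted p = 1.2e-09). Cybrd1, or duodenal cytochrome b, fell by 0.20 (SE 0.029), and Steap3, the endosomal reductase of the transferrin cycle, fell by 0.18 (SE 0.024). Mcoln1, a lysosomal cation channel, rose by 0.13 and Exoc6, a subunit of the exocyst, fell by 0.087, both named after their values were seen. The transcript of transferrin itself (Trf) was under the filter at 2.15 to 2.17.

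Of iron release and the hepcidin axis, 3 of 6 tested genes rose and none fell. Here too the called share was above the 24.9% of all genes, and the difference was not tested. Ceruloplasmin (Cp), the ferroxidase that works with ferroportin, was at 10.88, 10.86 and 10.84 with astrocytic and 11.24, 11.25 and 11.26 with microglial apoE. Its 3 libraries per group were tightly spaced, and the log2 fold change was 0.39 ± 0.027 (SE), or 1.31-fold (limma adjusted p = 2.6e-11). Hfe, a partner of the transferrin receptors, rose by 0.29 ± 0.030 (SE), and Bmp6, a known inducer of hepcidin, rose by 0.12 ± 0.034 (limma adjusted p = 0.014). The Bmp6 call ended without astrocytic replicate 2 (0.085, limma adjusted p = 0.13), microglial replicate 2 (0.052) or microglial replicate 3 (0.068), and with the mitochondrial share as a covariate the change was 0.020 (0.92). Heph, a second ferroxidase, had a change of 0.054 ± 0.027 that did not pass (limma adjusted p = 0.14).

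Among the iron chaperones and the machinery that degrades iron regulatory protein 2, 3 of 7 genes rose and 1 fell. That called share of 57.1% stood beside 24.9% of all genes. Pcbp1, an RNA-binding protein that also delivers iron to ferritin, rose by 0.18 ± 0.034 (SE; limma adjusted p = 0.00048). Its relatives Pcbp2 and Pcbp3 rose by 0.12 ± 0.027 and 0.095 ± 0.029, and the Pcbp3 call ended without astrocytic replicate 1, astrocytic replicate 2 or microglial replicate 3 (limma adjusted p from 0.073 up to 0.10). Skp1a, a subunit of the ubiquitin ligase that uses Fbxl5, fell by 0.12 on the log2 scale (SE 0.030; not called without astrocytic replicate 2, limma adjusted p = 0.0501), whereas the change of Fbxl5, the iron sensor of that ligase, was -0.0080 (limma adjusted p = 0.87). With the mitochondrial share as a covariate no gene of this group remained called.

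In haem synthesis none of 10 tested genes rose and 2 fell, Uros and Fech, a called share of 20.0% beside 24.9% of all genes. Uros fell by 0.11 on the log2 scale (SE 0.030). Fech, the enzyme that inserts iron, fell by 0.091 (SE 0.032, limma adjusted p = 0.039), with overlapping libraries. Its call ended in 4 of 6 fits that left out a library, namely astrocytic replicate 1 or 2 or microglial replicate 1 or 3 (limma adjusted p up to 0.22), and with sums made equal (0.079). The Uros call ended without astrocytic replicate 1 (limma adjusted p = 0.053). In haem transport and degradation 1 of 7 (14.3%) rose. This was Hmox1, whose product opens the haem ring and frees its iron, at 11.22, 11.26 and 11.28 with astrocytic and 11.93, 11.97 and 11.94 with microglial apoE. Its log2 fold change of 0.69 ± 0.027 (SE) was the highest of all 72 genes tested. Hmox2, the constitutive form, had a change of -0.042 (limma adjusted p = 0.33), and Blvrb, a biliverdin reductase, one of 0.075 (limma adjusted p = 0.11).

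**Figure D4:**
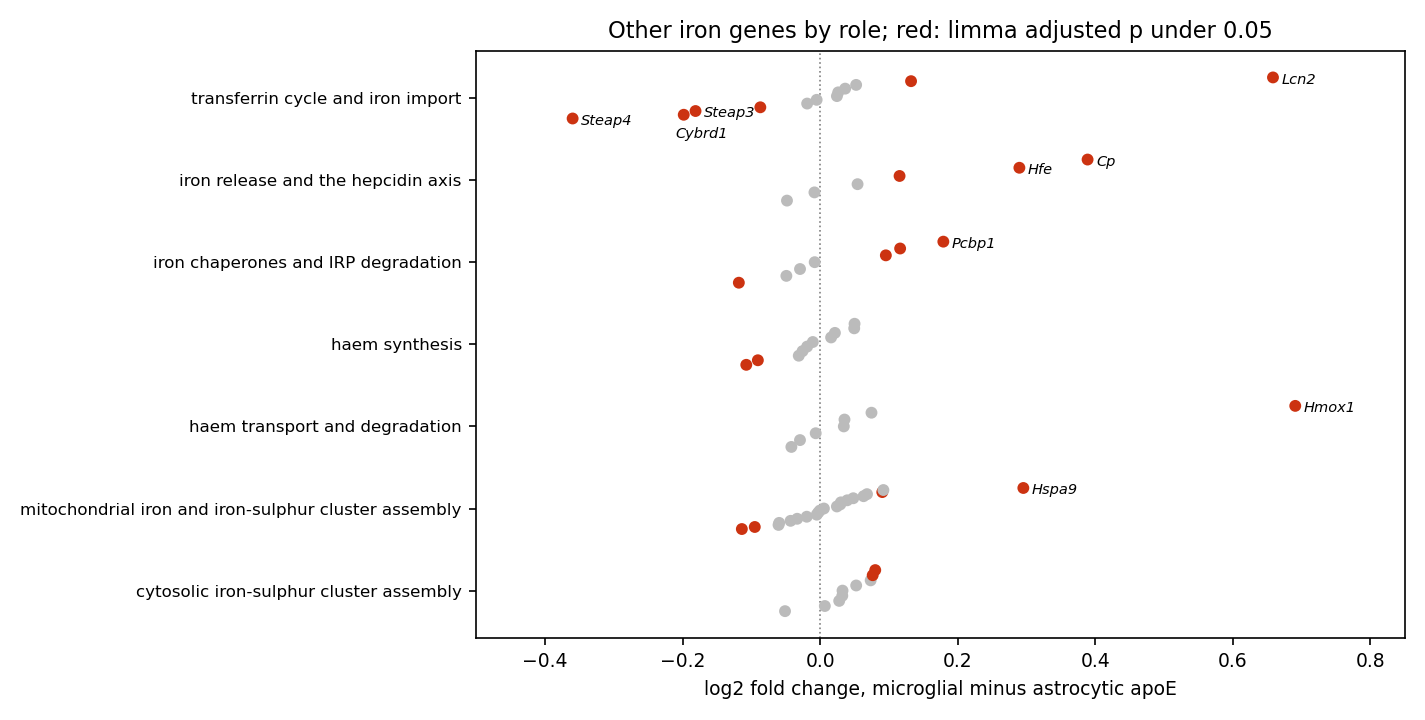
Log2 fold change (x axis, microglial minus astrocytic apoE) of the 72 tested iron genes outside the 8, in rows by role, with red points for a limma adjusted p under 0.05. Hmox1 (0.69) and Lcn2 (0.66) lie farthest to the right and Steap4 (-0.36) farthest to the left.

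Of the iron-sulphur cluster genes in mitochondria, 2 of 21 tested rose and 2 fell, a called share of 19.0% beside 24.9% of all genes. Hspa9, the chaperone mortalin, went from 13.62, 13.66 and 13.60 to 13.91, 13.93 and 13.93, a rise of 0.30 ± 0.026 (SE; limma adjusted p = 1.9e-09). The other calls were Glrx5 at 0.090, Abcb8 at -0.095 and Lyrm4 at -0.11, the last with overlapping libraries. Each of these 3 calls ended in at least 3 of 6 fits that left out a library, without astrocytic replicate 2 in every case. The Glrx5 call also ended with every library's median set equal (limma adjusted p = 0.076), and with sums made equal so did those of Abcb8 (0.085) and Lyrm4 (0.057). In the cytosol 2 of 9 (22.2%) rose, Mms19 by 0.080 and Ciao1 by 0.076, with limma adjusted p = 0.039 and 0.049. Both calls ended when any library other than astrocytic replicate 3 was left out, with weak genes kept and with every library's median set equal (limma adjusted p = 0.10 and 0.12 in the last).

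Transcription factors known to act on ferritin genes and other neighbours of ferritin regulation were read as well. Nfe2l2 encodes NRF2, which activates ferritin and Hmox1 genes, and had values of 10.64, 10.65 and 10.62 with astrocytic and 11.01, 11.01 and 10.97 with microglial apoE. The libraries did not overlap, and the log2 fold change was 0.36 ± 0.027 (SE; limma adjusted p = 1.6e-10). Bach1, the haem-sensing repressor, had a change of 0.025 (limma adjusted p = 0.61) and Keap1, which holds NRF2 in check, one of 0.048 (limma adjusted p = 0.28). Slc7a11, the cystine importer, rose by 1.03 ± 0.033 (SE; limma adjusted p = 7.6e-17), and Gpx4, the lipid peroxide reductase, had a change of 0.030 (limma adjusted p = 0.45). The change of the cells' own Apoe was 0.0043 ± 0.026 (limma adjusted p = 0.93). It turned negative, down to -0.019, under several other settings.

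The genes whose library values ran closest to those of Fth1, by the root mean square difference of values centred on each gene's mean over the 6 libraries, were Atf5 (0.037), Rpl28 (0.038), Phlda3 (0.039) and Zfp36l2 (0.040), where the values of Fth1 itself spread by 0.18. Their log2 fold changes were 0.38, 0.26, 0.36 and 0.26. For Tfrc, which spread by 0.049, the closest were Rnf152 (0.010), Cnot1 (0.011), Secisbp2 (0.012) and Braf (0.012). These are descriptions over 6 libraries that share the group difference.

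Markers of the labelled cell type and of others were read in the same libraries. None of the 10 neuronal markers was at 0. Their summed back-transformed value was 73702 to 74421 with astrocytic and 71579 to 72305 with microglial apoE, with 1 higher and 4 lower calls. Over all genes tested, 13.0% were called higher and 11.8% lower. The 10 astrocyte markers, also all above 0, summed to 73445 to 74618 and 62127 to 62692, with 1 higher and 8 lower calls and a median change of -0.29. With astrocytic apoE this range overlapped that of the neuronal markers, and which cells a change came from was not tested. The lower calls ran from -0.097 (Slc1a2) to -1.08 (Gfap). Slc1a3 rose by 0.094 (limma adjusted p = 0.0050), and Sox9 had a change of 0.063 that did not pass (limma adjusted p = 0.12). The 12 microglial and macrophage markers summed to 590 to 610 and 623 to 624, with 1 of 9 tested genes higher. The 11 oligodendrocyte lineage markers summed to 6505 to 6809 and 6611 to 6776, with 1 of 9 tested genes higher (Olig2, 0.15) and 3 lower (Pdgfra at -0.38, Cnp at -0.20 and Sox10 at -0.11). The 8 endothelial and pericyte markers summed to 407 to 412 and 418 to 424, with no call among the 3 tested. Of the 4 red blood cell globin genes 2 were at 0 and none was tested. The fall of most astrocyte markers went with the same groups as the rise of Fth1 and Ftl1 and the other calls, and its part in those results was not tested. In such bulk samples fewer cells of a type and less RNA of a marker per cell cannot be told apart.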

How the data were processed

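The deposited tables hold one log2-scale value per gene symbol and library. Per the submitters' processing notes, the tools were featureCounts, HISAT2, DESeq2 and FastQC, with neither roles nor versions, and the build was GRCm38. The sources used here give no annotation, strand setting or transformation. A regularized logarithm is inferred from the values: 21031 symbols stood at 0 in all 6 libraries and 0 symbols in only some. Such values shrink the spread of weak genes: the median within-group SD was 0.0216 for genes valued 4 to 6 and 0.0312 for those of 12 or more.

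Values were tested as deposited with limma 3.58.1 (trend and robust options) in R 4.3.3, for the 15055 genes at the log2 of 10 or more in at least 3 libraries. A call is a Benjamini-Hochberg adjusted p under 0.05 over those genes. Coordinates and lengths are from GENCODE release M21, 1-based, for 45250 symbols. Ferritin copies were found with BLAST 2.17.0, and tables and figures were made in Python 3.11.15 (pandas 2.3.3, numpy 2.4.6, matplotlib 3.10.9). RefSeq held promoters for 6 of the 8 genes. The limma fit was tested on simulated data.

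The members and lists were chosen with earlier results of these data known. Named are the 8 genes, up to 4 genes of each role list with the smallest p and all calls of a list with 5 or fewer, symbols that begin with Fth or Ftl, the 4 genes most like Fth1 and Tfrc, and 6 neighbours of ferritin regulation. Steap2, Mcoln1, Exoc6, Trf, Hamp, Hamp2, Fbxl5, Gm15590, Gm6977, single astrocyte markers and the oligodendrocyte lineage calls were named after their values were seen. Flvcr1 and Flvcr2 were not analysed here. Alternatives changed the filter, scaling, pseudocount, limma options, replicate block and libraries used.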

Additional observations from a re-analysis of the deposited data

How the results depend on the processing

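With all 6 libraries, 8 changes of filter, scaling, pseudocount, limma options or block left Fth1 between 0.32 and 0.35 and Ftl1 between 0.25 and 0.28 on the log2 scale, and both passed limma's adjusted test in each. Leaving out 1 library gave 0.28 to 0.40 for Fth1 (limma adjusted p = 0.10 without microglial replicate 2), 0.23 to 0.32 for Ftl1, 0.024 to 0.073 for Aco1, 0.031 to 0.065 for Slc11a2, 0.030 to 0.087 for Tfrc (limma adjusted p = 0.036 without microglial replicate 2), -0.087 to -0.061 for Ireb2 (lost in 5 of 6) and -0.029 to 0.0031 for Ncoa4, positive without astrocytic replicate 1. Ireb2 was also not called with no filter (-0.075, limma adjusted p = 0.087) or with sums made equal (-0.062, 0.11). Either way, and without single libraries, 0 to 1 of the 8 genes fell.

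Same-numbered libraries did not deviate together (correlations of 0.039, -0.12 and -0.19). With 3 libraries per group this cannot show whether a number marks a shared culture, which the labels do not state. With the replicate block Ireb2 stayed at -0.075 but was not called (limma adjusted p = 0.082), leaving 0 of the 8 lower. The block also ended the calls of Abcb8 (0.054), Mms19 (0.070) and Ciao1 (0.085), and 3387 genes were called in all.

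Among the 72 other iron genes, leaving out 1 library gave 8 to 17 higher and 4 to 10 lower calls, and equal sums gave 5 lower. Removing the trend with transcript length, added after seeing the data, gave 0.33 for Fth1 and 0.26 for Ftl1. With the mitochondrial share as a covariate, also added later, 0 of the 8 genes were called in either direction and 5 other iron genes rose and 3 fell. The changes were then 0.097 for Fth1, 0.084 for Ftl1, -0.057 for Ireb2, -0.043 for Aco1, 0.039 for Ncoa4, -0.0081 for Blvrb, 0.090 for Lyrm4, -0.048 for Bach1, -0.024 for Keap1 and -0.024 for Rpl28. Apoe was -0.0074 there, -0.014 after median centring, -0.0059 with sums outside mitochondrial genes equal, -0.0029 with the length trend removed, and -0.019 to 0.017 with 1 library left out, negative without astrocytic replicate 2 (-0.019) or microglial replicate 2 (-0.010). The cause of these shifts was not tested. Over all genes, called genes numbered 2556 without astrocytic replicate 2 and 867 with the covariate, against 3742. The unknown depth and the shrunken spread limit the weakest genes most, Slc40a1 among them.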
